A study of Mus musculus with 2 samples.

Results

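Of the Toll-like receptor system, 8 genes are described here among 21887 protein-coding genes on chromosomes 1 to 19, X and Y, namely Tlr1, Tlr2, Tlr4, Tlr6, Tlr9, Cd14, Ly96 and Myd88. They were chosen by name. All peaks of acetylated histone H3 lysine 27 (H3K27ac, found at promoters and enhancers in use) over each gene and 25 kb on both sides were taken. Tlr1 and Tlr6 lie close together and were treated as 1 locus, which left 7 loci of 452.1 kb in all. The cells are MA9 cells, a mouse acute myeloid leukaemia made by the MLL-AF9 fusion protein, collected from bone marrow of primary animals. They were Gata2 -/- (Gata2 KO, 1 library), with the gene deleted, or Gata2 f/f (1 library), with the floxed gene. Per the labels, MA9 cells were transduced with Cre or with a control vector (MIT), sorted for GFP and tdTomato and grown with the cytokines SCF, IL-3 and IL-6, and chromatin was taken after 7 to 9 days. Both groups share the leukaemic fusion and the cytokines. The labels do not say how many animals or clones stand behind a library. Gata2 encodes a zinc finger transcription factor needed by blood stem and progenitor cells. With 1 library per genotype there is no replicate check, and each difference below describes these 2 libraries. In a bulk library, less acetylation per cell and fewer acetylated cells cannot be told apart.

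Toll-like receptors are membrane proteins that recognise microbial molecules and are carried by monocytes, macrophages, neutrophils and their precursors. CD14 captures lipopolysaccharide and hands it to the complex of TLR4 with MD-2, the product of Ly96. TLR2 recognises bacterial lipopeptides together with TLR1 or TLR6, and TLR9 senses unmethylated CpG DNA in endosomes. All of these receptors signal through the adaptor MyD88 to NF-kB.

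The KO list held 37302 peaks and the f/f list 34313, of which 37234 and 34272 lay on the chromosomes used. Read depth behind the lists is unknown. Each peak carries the authors' own fold enrichment and -log10 p, which are used mainly to place it within its own list. Fixed cut-offs on fold enrichment and on -log10 q were also applied alike to both lists, as alternative settings. The ratios under these cut-offs therefore do compare such values between the lists. The median -log10 p was 9.41 in KO and 12.2 in f/f. The libraries stand apart in marks of sex: the KO list, but not the f/f list, had gene-end peaks at the Y-linked Uty, Kdm5d and Eif2s3y, and the f/f list, but not the KO list, had one at Xist. None of the 7 loci lies on a sex chromosome or before the first peak of its chromosome in either list. Of 8 myeloid marker genes, 6 in KO and 7 in f/f had a peak within 1 kb of a gene end. Mpo had one in f/f alone, and Fcgr3 had none in either. Of 15 B cell, T and NK cell and erythroid markers, Cd79a, Cd4 and Klf1 had such a peak in both lists, and of 5 stromal and endothelial markers Pecam1 had one in f/f alone.

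Every one of the 8 genes carried an H3K27ac peak within 1 kb of a gene end in both lists. The share over all protein-coding genes was 47.6%. For Tlr9 the KO call was near the limit of the list, with a -log10 q of 1.24 and 2.33-fold enrichment. It drops out with the 34272 strongest peaks of each list, at a -log10 q of 5 and at 3-fold enrichment. The 7 loci held 34 peaks in KO and 31 in f/f, of which 30 formed pairs that overlapped one to one. Peaks covered 49.5 kb of these loci in KO and 44.9 kb in f/f, a ratio of 1.10. Over all 16306 protein-coding loci with a peak the ratio of the sums was 1.05. The order at the 7 loci depended on the weaker peaks. The ratio was 0.922 when peaks under a -log10 q of 5 were left out, and 0.877 when those under 3-fold enrichment were. The ratio over all loci is not given at these cut-offs. Over the whole lists KO peaks were weaker, with a median fold enrichment of 3.09, against 3.51 in f/f. Whether the turn is particular to the 7 loci was not tested.

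**Figure D1:**
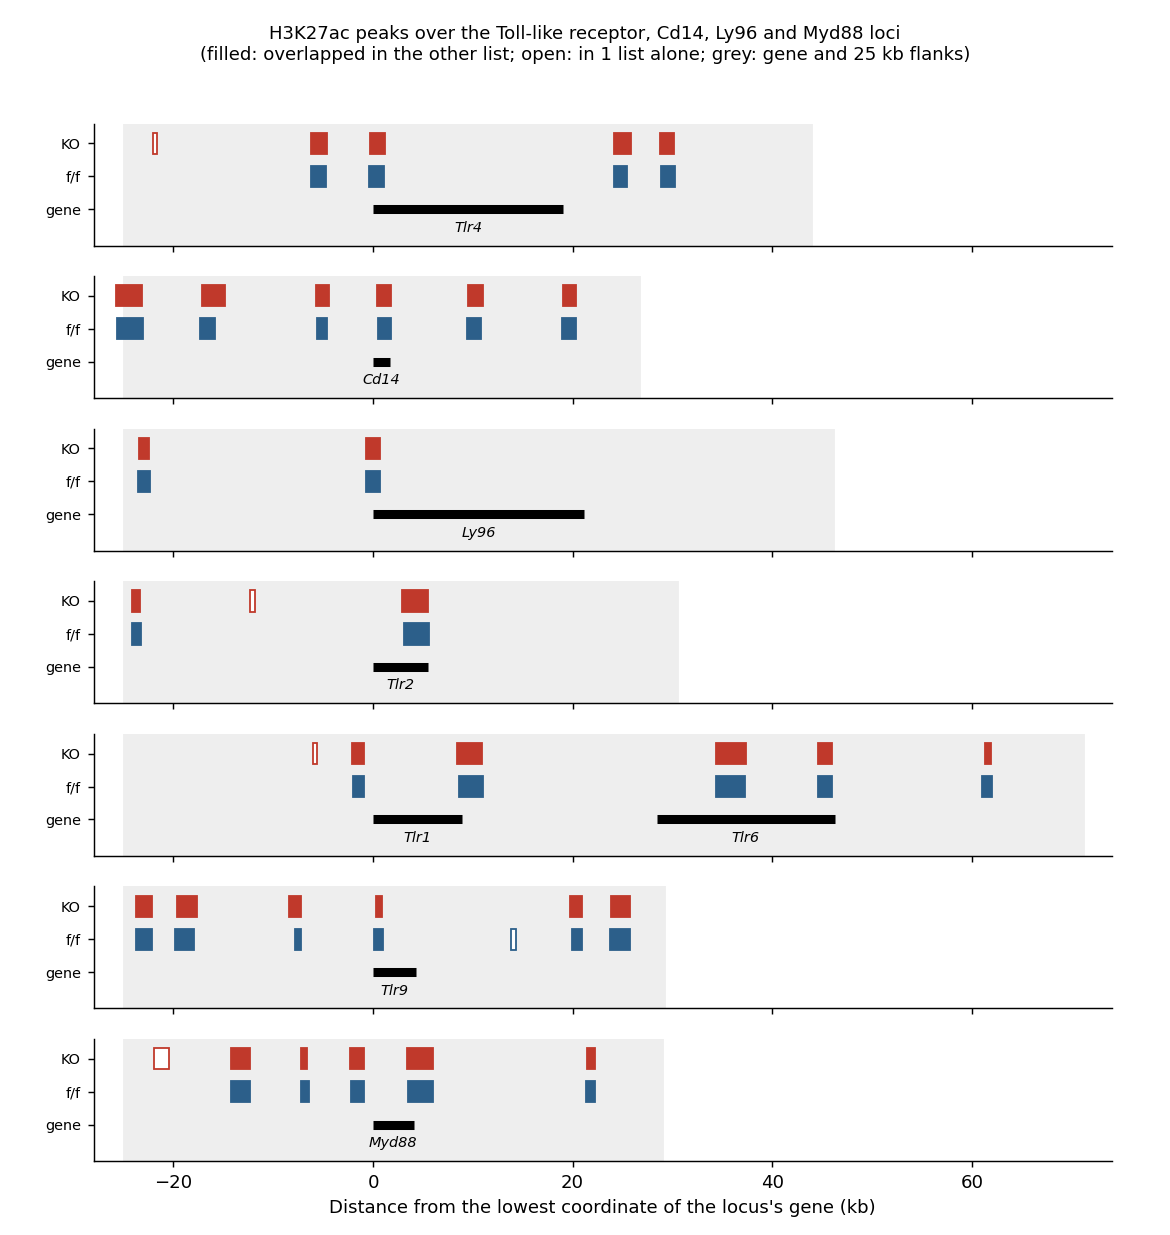
H3K27ac peaks at each locus, with KO peaks (red) above f/f peaks (blue) and the gene in black, against the distance in kb from the lowest coordinate of the locus's gene. Filled boxes overlap a peak of the other list and open boxes do not. A reader should see 30 matched pairs, with 4 open boxes in KO and 1 in f/f.

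For 5 of the 8 genes, RefSeq (GRCm38.p6, the same build as mm10) gave the start sites and their sequence, which places the peaks relative to transcription and not only to gene ends. These were Tlr1, Tlr2, Tlr6, Tlr9 and Myd88, with 7 start windows of 300 bases, 250 before and 50 after the start. Of the 7 windows, 5 lay under a peak in both lists, against 34.5% of all 32851 such windows. Those outside were the Tlr9 window and the inner of 2 Tlr1 windows. For each gene the outermost of these start sites is printed below, because these stretches are what the peaks do or do not cover. The annotated spans of Tlr1, Tlr2 and Tlr6 reach further upstream than the printed start. Each runs 5′ to 3′ on the gene's own strand over 280 bases, from 250 before the start to 30 after it. Capitals mark the core GGAAGT or its complement ACTTCC, which ETS factors such as PU.1, a main regulator of myeloid genes, can bind. The windows lie at chr5:64933529-64933808 (Tlr1), chr3:83841579-83841858 (Tlr2), chr5:64960019-64960298 (Tlr6) and chr9:119339989-119340268 (Myd88), on the minus strand, and at chr9:106222348-106222627 (Tlr9), on the plus strand.
Tlr1: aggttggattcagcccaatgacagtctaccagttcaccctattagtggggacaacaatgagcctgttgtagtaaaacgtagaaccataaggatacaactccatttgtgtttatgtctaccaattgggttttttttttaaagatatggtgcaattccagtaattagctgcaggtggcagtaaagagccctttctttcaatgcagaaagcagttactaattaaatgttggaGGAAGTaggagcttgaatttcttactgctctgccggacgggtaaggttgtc
Tlr2: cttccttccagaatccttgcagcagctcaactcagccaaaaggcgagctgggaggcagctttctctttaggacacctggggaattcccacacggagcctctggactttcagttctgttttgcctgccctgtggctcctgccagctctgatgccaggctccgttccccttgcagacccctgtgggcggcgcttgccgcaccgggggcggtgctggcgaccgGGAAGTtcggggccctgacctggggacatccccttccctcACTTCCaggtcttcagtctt
Tlr6: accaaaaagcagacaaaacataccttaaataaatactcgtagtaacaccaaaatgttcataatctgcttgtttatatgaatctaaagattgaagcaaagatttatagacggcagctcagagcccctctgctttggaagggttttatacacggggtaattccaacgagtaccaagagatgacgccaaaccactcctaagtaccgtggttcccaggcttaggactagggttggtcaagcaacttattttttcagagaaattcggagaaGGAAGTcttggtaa
Tlr9: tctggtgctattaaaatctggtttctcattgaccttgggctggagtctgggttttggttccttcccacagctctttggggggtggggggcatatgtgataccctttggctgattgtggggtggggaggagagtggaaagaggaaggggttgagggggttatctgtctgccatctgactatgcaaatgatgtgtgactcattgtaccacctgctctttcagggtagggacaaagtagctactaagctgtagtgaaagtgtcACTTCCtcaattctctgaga
Myd88: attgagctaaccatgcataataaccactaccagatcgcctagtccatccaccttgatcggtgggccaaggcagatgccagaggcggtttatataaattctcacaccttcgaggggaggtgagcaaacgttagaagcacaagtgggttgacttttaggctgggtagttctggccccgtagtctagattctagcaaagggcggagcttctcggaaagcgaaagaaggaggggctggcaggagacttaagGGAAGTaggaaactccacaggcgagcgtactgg
All 5 sequences held the ETS core, beginning between 30 bases before and 17 bases after the start. Of all windows of this length 22.3% held it on either strand, and 29.6% of those under a peak in both lists. The core was chosen with these sequences in view, so that the count is a description. The GATA motif (GATAA, both strands) was found in the Tlr9 sequence and in none of the other 4, against 24.4% of all windows. The NF-kB motif was found in the Tlr2 sequence (4.22% of all windows) and the AP-1 motif TGANTCA in that of Tlr9 (7.46%). A match names letters only and is not evidence of binding.

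The receptor complex for lipopolysaccharide was marked at all of its genes, with peaks of nearly the same width at their ends in both genotypes. Some distal peaks around Cd14 and Tlr4 differed more in width. Cd14 (chromosome 18, 36725064 to 36726815) had the highest share of its locus under peaks of the 7, at 18.8% in KO and 16.3% in f/f. That was more than 98.0% of protein-coding loci in the KO list and 96.8% in the f/f list. Over the gene itself lay 1 peak, 1342 bp wide in KO and 1278 bp in f/f, which covered most of the short gene and its upper end. Its -log10 p of 41.4 in KO and 54.0 in f/f placed it above 86.1% of KO peaks and 82.0% of f/f peaks. The peaks at the neighbouring genes Tmco6 and at Ndufa2 and Ik were stronger still. They were 1497 and 1363 bp wide in KO, against 1422 and 1351 bp in f/f.

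On the lower side of Cd14 lay 3 distal peaks, that is, peaks over 2 kb from any protein-coding gene end. The nearest, 4.38 kb from the gene in KO and 4.58 kb in f/f, was 1318 bp wide in KO and 1026 bp in f/f. The middle one, at the end of the long non-coding RNA Gm41699, was 2331 bp wide in KO and 1414 bp in f/f, a ratio of 1.65. It reached 1041 bp further at its upper edge in KO and 124 bp less at its lower edge. Among all one-to-one shared peaks, 10.3% were at least 1.5 times wider in KO and 9.94% at least 1.5 times narrower. The farthest of the 3 had 2599 bp in KO and 2573 bp in f/f. The locus as a whole had 9725 bp under peaks in KO and 8432 bp in f/f, a difference of 1293 bp, of which the peak at Gm41699 gave 917. Without that peak's gain the ratio of 1.15 became 1.04. It turned to 0.882 without peaks under 3-fold enrichment.

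Tlr4 (chromosome 4, 66827551 to 66846581) had a peak over its lower end, 1420 bp wide in KO and 1521 bp in f/f. A -log10 p of 44.8 in KO and 45.2 in f/f placed that peak above 87.7% of KO peaks and 78.8% of f/f peaks. Its lower edge lay 183 bp nearer to the gene in KO and its upper edge 82 bp further in. Around it stood 3 distal peaks present in both lists and no peak of another gene. The one below the gene, 4.58 kb away in KO and 4.68 kb in f/f, was 1618 bp wide in KO and 1511 bp in f/f. Above the gene, the first, 5.07 kb away in KO and 5.08 kb in f/f, was 1768 bp wide in KO and 1316 bp in f/f. The second, 9.75 kb away in KO and 9.86 kb in f/f, was 1383 bp wide in KO and 1335 bp in f/f. The KO list also had a peak of 393 bp, 21.7 kb below the gene, with no f/f counterpart. It was a weak call, stronger than 16.3% of KO peaks. Covered bases came to 6582 in KO and 5683 in f/f, a ratio of 1.16, with the distal peaks and not the gene-end peak carrying the gain. Without peaks under a -log10 q of 5 the ratio was 0.846, because the farthest distal peak above the gene and the peak of 393 bp then dropped out of the KO list.

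Ly96 (chromosome 1, 16688456 to 16709605), which encodes MD-2, had 1 peak at its lower end and none elsewhere in or near the gene. The peak was 1441 bp wide in KO and 1432 bp in f/f, and its edges differed by 8 and 17 bp. Its -log10 p was 40.7 in KO and 73.5 in f/f, above 85.8% of KO peaks and 87.4% of f/f peaks. The other peak of the locus lay over an end of Tmem70, 1026 bp wide in KO and 1151 bp in f/f, and was among the strongest at the 7 loci. Ly96 had the lowest share under peaks of the 7 loci, 3.47% in KO and 3.63% in f/f, and was the locus with fewer covered bases in KO (2467 bp, against 2583 bp in f/f). Its ratio was 0.955, against 1.01 with 10 kb flanks and 0.666 with 50 kb flanks.

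The lipopeptide receptors were marked by wide peaks at their RefSeq starts. At Tlr2 (chromosome 3, 83836272 to 83841824) the peak ran from 211 bp before the start to 2444 bp after it in KO, and from 317 bp before to 2198 bp after in f/f. It was wider than 94.5% of KO peaks and 93.0% of f/f peaks, and most of it lay within the gene. Its width was 2656 bp in KO and 2516 bp in f/f. The -log10 p was 19.3 in KO and 33.1 in f/f, above 69.9% of KO peaks and 73.2% of f/f peaks. A distal peak 23.4 kb below the gene in KO and 23.3 kb in f/f was 814 bp wide in KO and 907 bp in f/f. A further distal peak, 518 bp wide and 11.9 kb below the gene, was called in KO alone (-log10 p 8.49, under the KO median). It was stronger than 46.6% of KO peaks. It accounted for 518 of the 565 bp by which KO exceeded f/f (3988 and 3423 bp). Without it the ratio was 1.01. A cut-off at a -log10 q of 5 kept that peak, and the ratio turned to 0.927. The cut-off dropped the distal peak of 814 bp in KO (-log10 q 4.74) and kept its f/f partner (5.18).

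At Tlr1 (chromosome 5, 64924680 to 64933600) the peak over the outer start was 2459 bp wide in KO and 2400 bp in f/f. It lay mainly before the start, reaching 1995 bp upstream and 463 bp into the gene in KO, and 2107 bp upstream and 292 bp in in f/f. The call was weak for its width: it was stronger than 29.2% of KO peaks and 34.3% of f/f peaks, but wider than 92.9% of KO peaks and 92.0% of f/f peaks. A narrower and stronger peak lay just beyond the other end of Tlr1, 0.868 kb away in KO and 0.911 kb in f/f, 1192 bp wide in KO and 1128 bp in f/f. Its -log10 p was 36.5 in KO and 37.3 in f/f, the strongest of this locus in both lists. That placed it above 83.7% of KO peaks and 75.4% of f/f peaks. A KO peak of 409 bp, 5.63 kb beyond that end, had no f/f counterpart and was stronger than 35.2% of KO peaks.

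At Tlr6 (chromosome 5, 64953092 to 64970942) the gene end and the start windows pick out different peaks. Its upper end, the upstream end of this minus-strand gene, overlaps the start of the neighbour Fam114a1. The peak there covered the Fam114a1 start window, with 1368 bp in KO and 1385 bp in f/f. Whether that peak also belongs to a start of Tlr6 cannot be told from these lists. The peak over both RefSeq start windows of Tlr6 lay inside the gene, 5.97 kb from the nearest gene end, and counts as distal by distance. It was the widest peak of the 7 loci in both lists, 2948 bp in KO and 2856 bp in f/f, and began at the same base in each. It was wider than 96.2% of KO peaks and 95.4% of f/f peaks. A peak within Fam114a1 was narrower in KO, 595 bp against 920 bp in f/f, the only one of the 30 pairs to be at least 1.5 times narrower. The joint locus had 8971 bp under peaks in KO and 8689 bp in f/f, a ratio of 1.03. Without peaks under a -log10 q of 5 it was 0.634, and without those under 3-fold enrichment 0.541.

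Tlr9 (chromosome 9, 106222598 to 106226876) had the weakest gene-end call of the 8 genes. The peak did not cover the start site and lay wholly inside the gene. It ran from 280 to 945 bp after the start in KO, 666 bp wide, and from 90 to 969 bp in f/f, 880 bp wide. The -log10 p was 3.09 in KO and 7.12 in f/f, above 2.29% of KO peaks and 32.1% of f/f peaks. KO peaks of that strength had no f/f counterpart in 68.8% of cases, so that the call in KO was near the limit of the list. The locus had 8802 bp under peaks in KO and 8642 bp in f/f, a ratio of 1.02. It turned to 0.941 with the 34272 strongest peaks of each list, 0.954 with 10 kb flanks, 0.926 without peaks under a -log10 q of 5 and 0.658 without those under 3-fold enrichment. Much of the high coverage of the locus, 16.2% in KO and 15.9% in f/f, belonged to the neighbours Ppm1m, Twf2 and Alas1. Alas1 encodes the first enzyme of haem synthesis in non-erythroid cells, and the peak at its start was 1964 bp wide in KO and 2016 bp in f/f. The peak at the end of Twf2 that faces Tlr9 was 1240 bp wide in KO and 625 bp in f/f, the largest width ratio of the 30 pairs (1.98). Inside Alas1, f/f had a peak of 566 bp with no KO counterpart, the one such f/f peak of the 7 loci, stronger than 9.70% of the f/f list.

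The gene of the shared adaptor, Myd88 (chromosome 9, 119335934 to 119340018), had a wide peak over its start, 2634 bp in KO and 2570 bp in f/f. It reached from 1966 bp before the start to 667 bp after it in KO, and from 1970 bp before to 599 bp after in f/f. It also covered the start window of Acaa1a, a peroxisomal thiolase gene that begins nearby on the other strand, so that the 2 genes share 1 call. A second peak lay 0.913 kb below the gene in KO and 0.931 kb in f/f, 1345 bp wide in KO and 1293 bp in f/f. The strongest peak of the locus was that at Oxsr1, 1950 bp wide in KO and 1878 bp in f/f.

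Myd88 had the largest difference of the 7 loci, 8925 bp in KO and 7410 bp in f/f, a ratio of 1.20. A single KO peak of 1568 bp within Oxsr1, 20.4 kb below Myd88, accounted for it. That peak had no f/f counterpart and was stronger than 2.81% of the KO list. Without it the ratio was 0.993, and the same value was found with the 34272 strongest peaks of each list. With 10 kb flanks, which leave it out, the ratio was 0.9955, and without peaks under a -log10 q of 5 it was 1.11. Of 16306 loci, 91.1% had a smaller difference than Myd88 and 89.2% a smaller one than Cd14.

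**Figure D2:**
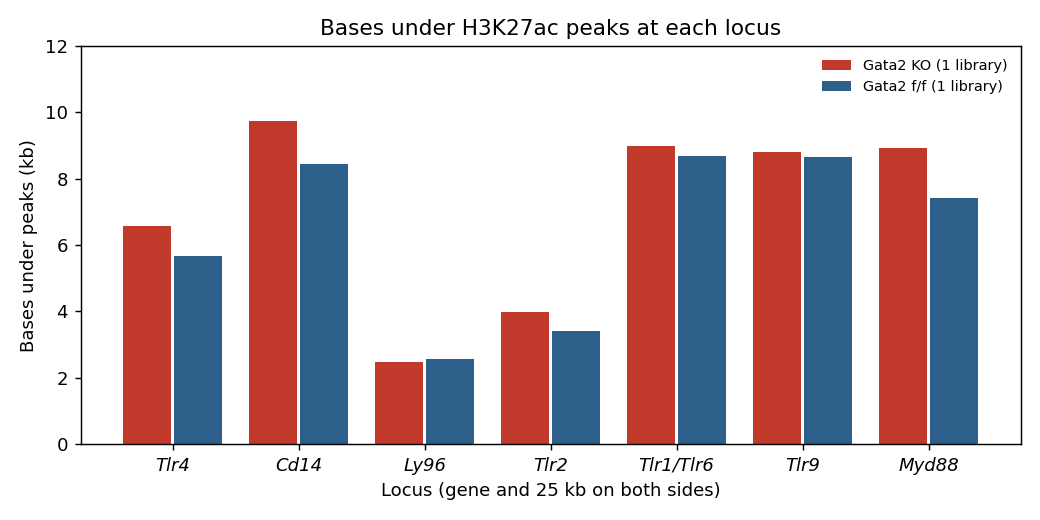
Bases under H3K27ac peaks (kb) at each locus, KO (red) left of f/f (blue), from 1 library each and with no error bars for that reason. KO is higher at 6 loci and lower at Ly96, with ratios of 0.955 to 1.20.

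No locus reached a ratio of 1.5 in either direction. Of all 16306 loci with a peak, 14.4% had at least 1.5 times more covered bases in KO and 10.6% at least 1.5 times fewer. Coverage was higher in KO at 6 of the 7 loci and lower at 1, with a median difference of 1.02 percentage points. Over all loci 54.4% were higher, and the median difference was 0.10 points. The count of 6 depended on the peaks and flanks used. In KO 4 of 7 loci were higher with the 34272 strongest peaks of each list, 5 of 7 with 10 kb flanks, and 6 of 7 with 50 kb flanks. It was 2 of 7 without peaks under a -log10 q of 5, and 3 of 7 without those under 3-fold enrichment.

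In sum, the small excess in KO lay mostly outside the peaks at the genes' own ends, with a few single peaks giving much of it. The 10 shared peaks at ends of the 8 genes differed by 120 bp in sum, and 7 of them were wider in KO. The 11 shared distal peaks had 1486 bp more in KO, of which the peak at Gm41699 gave 917. This class also holds the peak over the Tlr6 start windows (92 bp more). The 9 shared peaks at ends of neighbouring genes had 670 bp more, of which the peak at Twf2 gave 615. Peaks in KO alone added 2888 bp and the peak in f/f alone took away 566 bp. The median width ratio of the 30 pairs was 1.03, with 21 wider and 9 narrower in KO. By class it differed little: 1.04 for distal pairs, 1.02 at ends of the 8 genes and 1.02 at ends of neighbours. Over all 28349 one-to-one pairs the median was 0.991, and 47.5% were wider in KO. At least 1.5 times wider in KO were 2 of the 30, those at Gm41699 and at Twf2.

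**Figure D3:**
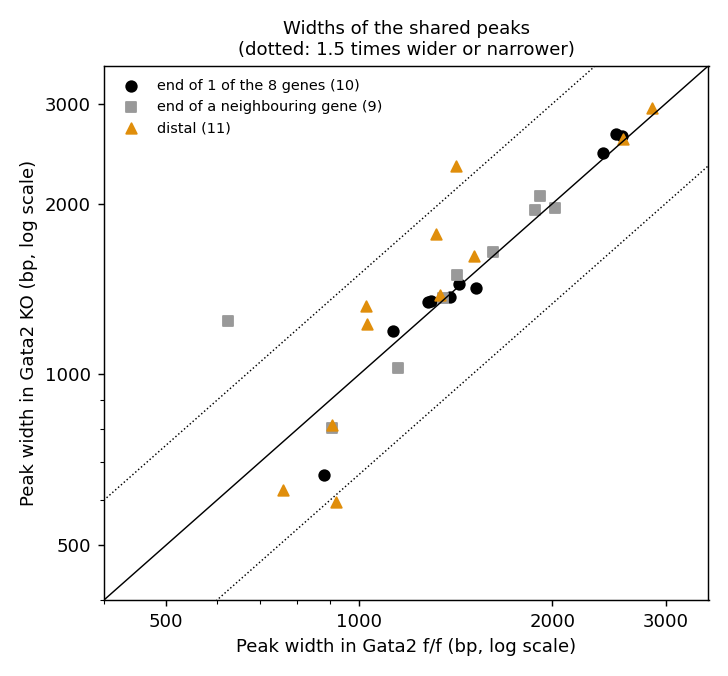
Width in KO against width in f/f (bp, log scales) of the 30 shared peaks, by position. Peaks at ends of the 8 genes (black) lie near the line of equal width, with ratios of 0.757 to 1.06, and the 3 points beyond the dotted lines of 1.5 times are at neighbours or distal.

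Peaks called in 1 list alone were few and lay in the weaker part of their list. Without a counterpart were 4 of 34 KO peaks (11.8%, 95% Wilson interval 4.67 to 26.6, which covers counting error only) and 1 of 31 f/f peaks (3.23%, 0.572 to 16.2). Over the whole lists the shares were 22.6% in KO and 16.2% in f/f. All 5 lay below the median -log10 p of their list, where 40.9% of KO peaks and 29.9% of f/f peaks had no counterpart. All 20 KO peaks and all 20 f/f peaks at or above the median had one, and few peaks of that strength lacked one in either whole list. None of the 5 was at an end of a gene. Each list was also split into 10 equal bins by strength, and each peak was given the share without a counterpart in its own bin. These shares add up to 5.35 peaks in KO and 3.26 in f/f. In the bins above the median the share was at most 10.2% in KO and 6.48% in f/f.

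**Figure D4:**
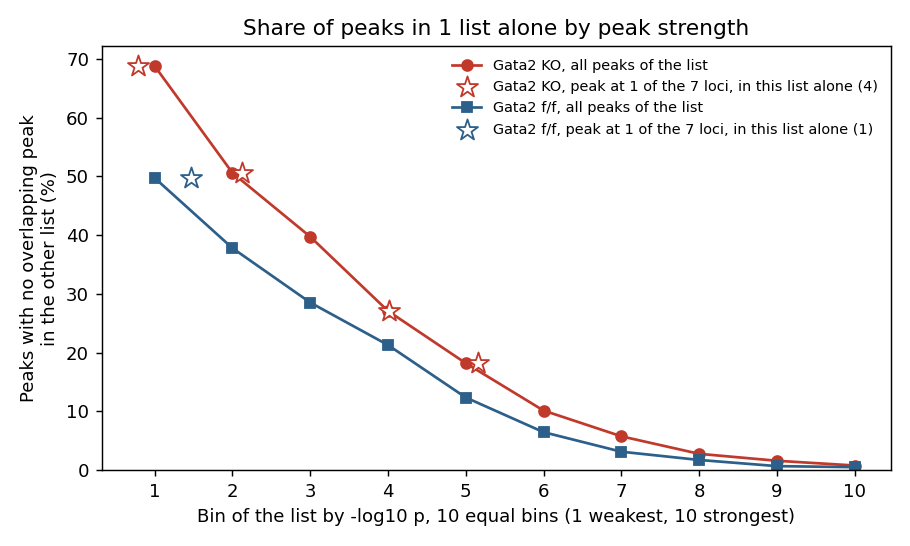
Percent of all peaks of each list with no overlapping peak in the other list, in 10 equal bins of the list from weakest to strongest -log10 p (KO red, f/f blue). From the weakest to the strongest bin the share goes down from 68.8% to 0.806% in KO and from 49.7% to 0.525% in f/f, and the stars, the 5 peaks of the 7 loci without a counterpart, all lie in the weaker 5 bins.

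Beyond these genes, 57 others of the same pathway were examined in 5 groups, and 55 of them had a peak at their locus. Loci that overlap, as those of Tlr7 and Tlr8 do, were not joined here, so that a peak can count for more than 1 gene. A gene-end peak was present in both lists for 41 of the 57, in KO alone for 6 and in f/f alone for 2. Over all 21887 genes the shares were 47.6% in both, 2.65% in KO alone and 2.73% in f/f alone. Coverage was higher in KO for 31 of the 55 and lower for 24, or for 29 and 24 without 2 genes in a blank stretch of the f/f list, which is near the 54.4% of all loci that were higher. At least 1.5 times more covered bases in KO were found for 11 (20.0%, against 14.4% of all loci) and at least 1.5 times fewer for 2 (3.64%, against 10.6%). The genes Unc93b1 and Map3k8, both at 0 in f/f, lie before the first f/f peak of their chromosome, where that list is blank. Without them 9 of 53 were at least 1.5 times higher (17.0%) and 2 lower (3.77%), and the median difference was 0.41 points. Of the 57 genes, 6 lie on the X chromosome, among them Tlr7, Tlr8, Tlr13 and Ikbkg, where the part of the sex difference was not tested.

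Among the other Toll-like receptor genes, Tlr3, which encodes a sensor of double-stranded RNA, and Tlr11 had no peak at their loci in either list. Tlr7, a sensor of single-stranded RNA, had 3.96% of its locus covered in KO and 2.38% in f/f, and Tlr12 had 5.02% in KO and 4.06% in f/f. Tlr13 had 8.39% in KO and 9.98% in f/f, and the flagellin receptor gene Tlr5 3.45% in KO and 4.95% in f/f. Of the 5 genes of this group with a peak, 1 was at least 1.5 times higher in KO and none as much lower (14.4% and 10.6% of all loci). Among co-receptors and chaperones, 2 of 7 genes had more coverage in KO, where 54.4% of all loci were higher. The first was Unc93b1, a chaperone of endosomal receptors (16.6% in KO and 0 in f/f, in the blank start given above). The other was Cd180, a TLR4-like surface protein gene (5.73% in KO and 2.28% in f/f). Both were at least 1.5 times higher in KO (28.6% of the group), and 1 gene of the group was as much lower (14.3%). The scavenger receptor gene Cd36 had 0 in KO and 3.32% in f/f, and Lbp, which encodes the lipopolysaccharide-binding protein of plasma, 7.04% in KO and 8.42% in f/f.

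Adaptor and kinase genes had more coverage in KO in 13 of 17 cases, where 54.4% of all loci were higher. At least 1.5 times higher were 3 of the 17 (17.6%, near the 14.4% of all loci), and none were as much lower (10.6% of all loci). Map3k8 is among both the 13 and the 3. The MAP kinase kinase kinase gene Map3k8 had 8.73% in KO and 0 in f/f, in the blank start given above. Irak2, a kinase of the complex assembled by MyD88, had 19.6% in KO and 15.4% in f/f. Irak3, which restrains that complex, had 8.56% in KO and 12.7% in f/f, and Sarm1 9.40% in KO and 10.6% in f/f. Among 11 genes of NF-kB and IRF factors and their kinases, 6 were higher and 5 lower in KO. Of these 1 was at least 1.5 times higher (9.09%) and none as much lower (14.4% and 10.6% of all loci). Irf3 had 15.8% in KO and 12.3% in f/f, and Nfkb2 8.26% in KO and 5.27% in f/f. Nfkb1 had 5.96% in KO and 7.87% in f/f, and the X-linked Ikbkg 7.09% in KO and 8.89% in f/f.

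Feedback and target genes went both ways, with 8 of 15 higher and 7 lower in KO, where 54.4% of all loci were higher. Nfkbia, the NF-kB inhibitor that NF-kB itself induces, had 17.3% in KO and 9.96% in f/f. The cytokine gene Tnf had 31.5% in KO and 25.4% in f/f. Il12b, a subunit gene of IL-12 and IL-23, had 4.28% in KO and 9.89% in f/f, and the NF-kB inhibitor gene Nfkbie 14.9% in KO and 18.9% in f/f. In this group 4 genes were at least 1.5 times higher and 1 at least 1.5 times lower in KO (14.4% and 10.6% of all loci).

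**Figure D5:**
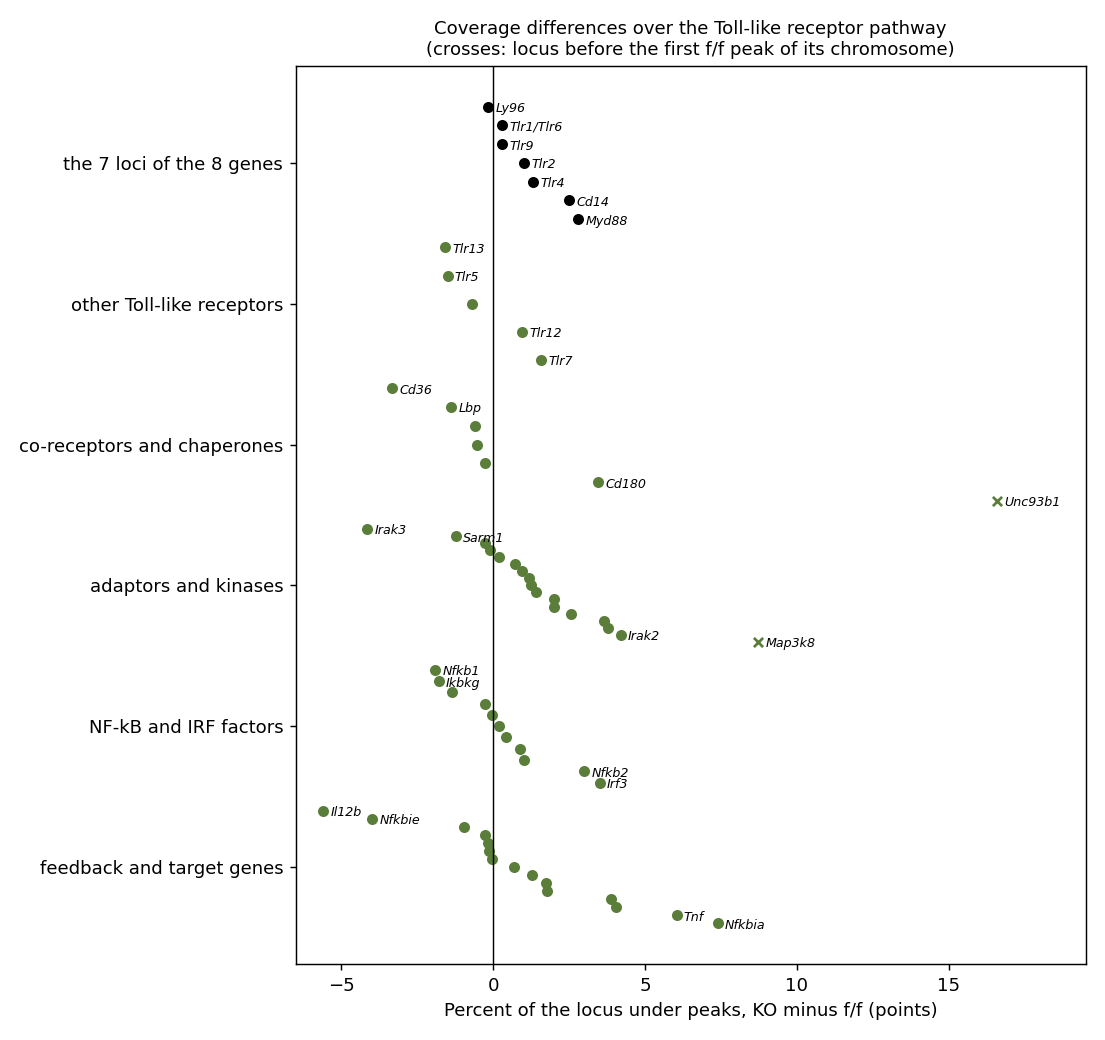
Difference in the percent of each locus under peaks, KO minus f/f in points, for the 7 loci of the 8 genes (black) and the 55 other pathway genes with a peak (green), by group. The 7 loci lie between -0.16 and 2.80 points, and the crosses, Map3k8 and Unc93b1, are loci where the f/f list is blank.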

How the data were processed

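H3K27ac ChIP-seq peak lists of 1 Gata2 KO and 1 Gata2 f/f library were used, grouped by the genotype in the labels. BWA, SAMtools and MACS2 and the build mm10 are named in the submitters' processing notes, with no version, and the deposited lists have the form of MACS2 broad peaks, 1 list per library. The sources used here give no caller options, control library or read numbers, so depth is unknown. More reads or better enrichment give more and wider peaks. Each deposited peak has a score (not used), a fold enrichment (a ratio to background), and -log10 values of its p-value and of its q-value, the lowest -log10 q being 1.01.

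Peaks outside chromosomes 1 to 19, X and Y were dropped. Covered bases were counted within each gene and 25 kb on both sides, Tlr1 and Tlr6 together. Peaks were shared at 1 bp of overlap, distal when over 2 kb from any protein-coding gene end, and otherwise assigned to gene ends within 1 kb. Gene positions and start windows came from RefSeq GRCm38.p6. Python 3.11.15, numpy 2.4.6, pandas 2.3.3 and scipy 1.17.1 were used, and overlaps were checked on simulated intervals against bedtools 2.31.1. No test of genotype is possible with 1 library each. A locus was called at a ratio of 1.5. All 8 genes could be named, and per pathway group the 2 largest differences each way. Members, lists and settings were chosen with earlier results of these data known.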

Additional observations from a re-analysis of the deposited data

How the results depend on the processing

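No paired analysis was possible because each genotype has 1 library, and for the same reason no replicate could be left out. The KO to f/f ratio of bases covered over the 7 loci, 1.10, was 1.05 with equal numbers of peaks (34272 each), 1.06 with 10 kb flanks and 1.09 with 50 kb flanks. It turned to 0.922 without peaks under a -log10 q of 5, and to 0.877 without those under 3-fold enrichment. With a -log10 q of at least 5, 1 locus reached a ratio of 1.5 in either direction (Tlr1 and Tlr6, 0.634). With at least 3-fold enrichment 2 did (Tlr1 and Tlr6, 0.541, and Tlr9, 0.658), and with 50 kb flanks 1 did (Ly96, 0.666). Each was lower in KO. With the main settings 10.6% of all loci were at least 1.5 times lower in KO. The share of all loci under these other settings is not given here, so these calls cannot be read as particular to these loci. The share of f/f peaks without a counterpart, 3.23%, moved to 18.5% (5 of 27) with a -log10 q of at least 5, where shared peaks can lose their partner to the threshold. Under the other alternatives it was 3.23% to 14.3%, and the KO share was 5.26% to 17.6%, against 11.8%. Depth, which is unknown, limits every statement on peaks called in 1 list alone.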
